A study of Homo sapiens with 30 samples.

Results

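The genes described here are 9 genes of MHC class I presentation and peptide loading, chosen by name among the 60483 gene records of every file: HLA-B, HLA-C, HLA-E, B2M, TAP1, TAP2, TAPBP, ERAP1 and NLRC5. All 9 passed the filter on low counts, which kept 18424 genes. Their RNA was measured in 30 libraries of PANC-1 tumoroids, 3-dimensional cultures of a human pancreatic ductal adenocarcinoma cell line labelled as WT, in 10 groups of 3 replicates that the study describes as parallel biological replicates. In 8 groups the tumoroids were hybrids with droplet-supported lipid bilayers (DSLBs), oil droplets coated with a lipid membrane that serve as synthetic cells, whose surface presented recombinant ectodomains. Of these, 7 groups carried a co-ligand beside PD-1 (TIGIT, LAG3, ICOS, CTLA4, CD40L, CD27 or CD2), and 1 group carried only PD-1. The negative controls were hybrids with plain DSLBs, which carried no protein, and DSLB-free tumoroids. Every protein-bearing group carried PD-1, so PD-1 and the presence of any protein on the DSLBs cannot be told apart. The cultures hold 1 cancer cell line and no living immune cells.

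MHC class I molecules display peptides from inside the cell to CD8+ T cells. Their heavy chains, among them HLA-B, HLA-C and HLA-E, pair with the invariant light chain B2M in the endoplasmic reticulum, where TAP1 and TAP2 form the transporter that brings in peptides, TAPBP (tapasin) bridges the transporter to the waiting heavy chain, and ERAP1 trims peptides to length. NLRC5 is the class I transactivator, which acts at promoters of class I genes. Loss of class I presentation is a known route by which carcinomas escape T cells.

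The summed expected counts were 21903971 to 60506800 per library (median 40603295). Epithelial markers were high, with KRT8 at 2428 to 3465 TPM (RSEM's relative abundance of transcripts, scaled for gene length) and EPCAM at 46.7 to 78.9 TPM, while CD3E was at 0 in all 30 libraries, CD3D at 0 in 29 and PTPRC at most at 0.33 TPM. CD68, a lysosomal protein that carcinoma cells also express, was at 22.5 to 50.4 TPM. The 6 epithelial markers summed to 5840 to 6610 TPM in the PD-1 groups, 4560 to 4930 TPM with plain DSLBs and 4580 to 5430 TPM without DSLBs, and the 6 fibroblast markers, nearly all of it COL1A1, to 133 to 252 TPM in the PD-1 groups, 305 to 345 TPM with plain DSLBs and 327 to 409 TPM without DSLBs. MALAT1, a nuclear RNA, took 0.101 to 0.283% of counts in the PD-1 groups, 0.0911 to 0.0997% with plain DSLBs and 0.117 to 0.126% without DSLBs. Mitochondrial genes took 1.71 to 7% of counts in the PD-1 groups, 4.74 to 5.19% with plain DSLBs and 3.19 to 4.98% without DSLBs. In bulk RNA, a different share of cells of a type and a different amount of RNA per cell cannot be told apart. The part of the epithelial, fibroblast and MALAT1 differences in the results below was not tested. In 4 libraries (PD-1/LAG3 replicate 3, PD-1/CTLA4 replicate 2, PD-1 replicate 1 and DSLB-free replicate 2) the distance to the nearer replicate was more than 3 times the distance between the other 2, and results that rest on them are also given without them.

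The promoters of the class I chains and of TAP1 are shown because these genes were the ones higher with PD-1-bearing DSLBs, and the patterns searched in them are those of factors whose own RNA is described further on. HLA-B (chr6:31353872-31367067), HLA-C (chr6:31268749-31272130), TAP1 (chr6:32845209-32853816), TAP2 (chr6:32821833-32838739) and TAPBP (chr6:33299694-33314284) lie on the minus strand and HLA-E (chr6:30489509-30494194) on the plus strand of the MHC region of chromosome 6. B2M (chr15:44711358-44718851) and NLRC5 (chr16:56989485-57083531) lie on plus strands and ERAP1 (chr5:96760810-96808100) on a minus strand, all on GRCh38. RefSeq windows of 300 bases (GRCh38.p14), 250 before and 50 after the start of transcription, were matched for 7 of the 9 genes, all but HLA-E and NLRC5. The windows below run 5′ to 3′ on the strand of the gene, as chr6:31357130-31357429 for HLA-B, chr6:31272043-31272342 for HLA-C, chr15:44711267-44711566 for B2M and chr6:32853655-32853954 for TAP1. Capitals mark any match, on either strand, to 5 patterns picked after these windows had been read: the long ISRE pattern (the core of the interferon-stimulated response element, GAAA, any 2 bases, then GAAA), the short ISRE pattern (GAA, any 2 bases, then GAAA), the NF-κB pattern (GGGANT, any 2 bases, then CC), TGACG (the core of the cyclic AMP response element, CRE) and CCAAT. Matches can overlap.
HLA-B: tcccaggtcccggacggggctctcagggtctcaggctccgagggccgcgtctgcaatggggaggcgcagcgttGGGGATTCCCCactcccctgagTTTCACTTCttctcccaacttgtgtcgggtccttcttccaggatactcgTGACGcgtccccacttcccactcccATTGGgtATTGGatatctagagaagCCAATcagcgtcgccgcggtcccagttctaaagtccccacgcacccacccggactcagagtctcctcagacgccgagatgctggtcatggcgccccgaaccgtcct
HLA-C: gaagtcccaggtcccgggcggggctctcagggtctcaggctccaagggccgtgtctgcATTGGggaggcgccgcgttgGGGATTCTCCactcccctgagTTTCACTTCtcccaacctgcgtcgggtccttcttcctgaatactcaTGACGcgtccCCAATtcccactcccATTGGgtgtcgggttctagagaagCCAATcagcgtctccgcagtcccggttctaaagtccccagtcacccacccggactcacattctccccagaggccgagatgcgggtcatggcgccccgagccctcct
B2M: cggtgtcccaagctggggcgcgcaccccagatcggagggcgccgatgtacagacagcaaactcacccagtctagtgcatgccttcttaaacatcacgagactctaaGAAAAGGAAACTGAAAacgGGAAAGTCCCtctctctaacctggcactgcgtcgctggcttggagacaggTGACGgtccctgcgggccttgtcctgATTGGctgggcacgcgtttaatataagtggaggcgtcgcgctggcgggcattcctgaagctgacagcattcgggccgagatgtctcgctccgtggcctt
TAP1: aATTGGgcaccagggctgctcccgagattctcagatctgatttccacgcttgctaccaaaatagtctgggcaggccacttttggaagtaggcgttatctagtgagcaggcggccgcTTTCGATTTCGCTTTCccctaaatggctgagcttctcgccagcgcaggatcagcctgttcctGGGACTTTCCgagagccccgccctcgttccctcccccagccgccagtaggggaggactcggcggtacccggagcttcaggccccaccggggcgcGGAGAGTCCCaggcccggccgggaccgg

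HLA-B and HLA-C held the same short ISRE match, TTTCACTTC, whose first base lies 155 bases before the start in HLA-B and 151 before it in HLA-C, with NF-κB matches upstream of it (2 overlapping in HLA-B, 1 in HLA-C) and TGACG downstream (105 to 106 bases before the start). B2M held 2 overlapping long ISRE matches beside an NF-κB match, and TAP1 held 2 overlapping ISRE matches on the other strand and 2 NF-κB matches. The windows of TAP2, TAPBP and ERAP1 held 1, 2 and 1 long ISRE matches and no NF-κB match. Of 35116 RefSeq windows of this length, 3.57% held the long ISRE pattern, 7.66% the short one, 5.13% the NF-κB pattern, 24.6% TGACG and 34.6% CCAAT. These matches are letters in the reference genome and were not tested for binding or use.

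Per transcript, B2M was by far the most abundant of the 9 genes, at 1660 ± 107 TPM in the 24 libraries of the PD-1 groups, 1290 ± 73.2 TPM with plain DSLBs and 1120 ± 101 TPM without DSLBs (SD, n = 24, 3 and 3). HLA-C followed at 208 ± 14.2 TPM in the PD-1 groups, 156 ± 12.1 TPM with plain DSLBs and 158 ± 20.5 TPM without DSLBs. HLA-E was at 177 ± 9.01 TPM in the PD-1 groups, 146 ± 9.40 TPM with plain DSLBs and 146 ± 11.4 TPM without DSLBs, with library ranges that overlapped those of HLA-C. HLA-B was at 131 ± 6.81 TPM in the PD-1 groups, 79.5 ± 8.71 TPM with plain DSLBs and 79.7 ± 4.42 TPM without DSLBs. The order of HLA-B and TAPBP thus differed between the classes: HLA-B (118 to 142 TPM) lay above TAPBP (73.5 to 114 TPM) in the PD-1 groups, whereas it lay below TAPBP in both controls (71.9 to 89.0 against 94.0 to 97.5 TPM with plain DSLBs, and 76.6 to 84.8 against 104 to 129 TPM without DSLBs). TAP2 (43.2 ± 7.20 TPM in the PD-1 groups), ERAP1 (31.2 ± 5.96 TPM) and TAP1 (22.6 ± 1.17 TPM) came next, with library ranges that overlapped between neighbours. NLRC5 was the lowest by far at 1.48 ± 0.407 TPM in the PD-1 groups, 1.27 ± 0.181 TPM with plain DSLBs and 1.33 ± 0.163 TPM without DSLBs. The uncertainty that RSEM gives for dividing reads among near-identical genes was at most 0.487% of the count for HLA-B, HLA-C and HLA-E and reached 6.58% for TAP2. It does not cover differences between the HLA alleles of PANC-1 and the reference.

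The 4 chains of class I molecules were higher in every group with PD-1-bearing DSLBs than with plain DSLBs. Levels from here on are CPM, counts scaled by library size, on TMM-scaled libraries, and tests are edgeR's quasi-likelihood tests in a single fit to the 30 libraries, with p-values adjusted (Benjamini-Hochberg) over all 18424 genes and a threshold of 0.05. Over the 10 groups 7 of the 9 genes differed, where 41.0% of all genes did, with HLA-B at an adjusted p = 6.84e-11 (rank 59 of 18424 genes by p), B2M at 6.03e-09, HLA-E at 3.02e-07 and HLA-C at 9.00e-05. TAP1 (adjusted p = 0.0116), TAPBP (0.0224) and TAP2 (0.045) were nearer the threshold, and TAP2 lost its call in 29 of 39 alternatives and TAPBP in 4 (0.0759 without PD-1/CD40L replicate 1). Without the 4 libraries that stand apart TAP2 was at 0.0512. NLRC5 (0.529) and ERAP1 (0.221) did not pass it, but ERAP1 did with the gene length trend removed (0.00252) and with the mitochondrial share as a covariate (0.024).

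HLA-B, a classical heavy chain, had 111 to 142.3 CPM (median 122) in the 24 libraries of the PD-1 groups, against 79.53, 69.79 and 66.80 CPM with plain DSLBs and 66.88, 81.88 and 66.43 CPM without DSLBs. None of the 24 libraries overlapped with any of the 6 controls. The mean of the 8 PD-1 groups was 1.74 times the plain DSLB level (95% interval 1.60 to 1.89, log2 fold change 0.80, SE 0.0593, edgeR adjusted p = 3.95e-11).

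HLA-C, also a classical heavy chain, had 141.5 to 216.2 CPM (median 154) in the PD-1 groups, against 114.1, 102.6 and 99.86 CPM with plain DSLBs and 101.9, 138.1 and 101.7 CPM without DSLBs. The gap between the lowest PD-1 library (PD-1/TIGIT replicate 3) and the highest control (DSLB-free replicate 2, which stands apart from its group and had a mitochondrial share of 3.19%) was small. The mean of the 8 groups was 1.52 times the plain DSLB level (1.33 to 1.75, log2 0.61, SE 0.0958, edgeR adjusted p = 1.71e-05), and log2 0.60 without the 4 libraries that stand apart (adjusted p = 7.94e-10). Replicates of HLA-C spread widely in some groups. PD-1/LAG3 replicate 3, with the lowest mitochondrial share of all libraries (1.71%), had the highest level, 216.2 CPM, against 162.8 and 153.8 CPM in its replicates.

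HLA-E, a heavy chain that presents leader peptides to NKG2A-bearing NK and T cells, had 268.7 to 322.1 CPM (median 296) in the PD-1 groups, against 239.3, 223.1 and 219.6 CPM with plain DSLBs and 221.5, 242.4 and 202.1 CPM without DSLBs. The 24 libraries again lay above all 6 controls, by a fold of 1.30 over plain DSLBs (1.22 to 1.39, log2 0.38, SE 0.0464, edgeR adjusted p = 3.50e-07). B2M, the shared light chain, had 502.2 to 662.3 CPM (median 588) in the PD-1 groups, against 424.1, 417.2 and 389.9 CPM with plain DSLBs and 351.3, 331.2 and 370.6 CPM without DSLBs. It did not overlap either, with a fold of 1.41 over plain DSLBs (1.30 to 1.53, log2 0.50, SE 0.0576, edgeR adjusted p = 1.25e-07) and of 1.65 over DSLB-free tumoroids (1.52 to 1.80, adjusted p = 1.64e-10), a comparison in which 19.8% of all genes were higher. Of all genes, 4.43% had all 24 PD-1 libraries above all 6 controls, against 4 of these 9. In the mean of the 8 groups over plain DSLBs, 18.2% of all genes were called higher and 18.7% lower, against 5 and 0 of the 9, and the median log2 fold change was 0.20 over the 9 genes and 0.01 over all genes. Limma on log2(TPM + 1) split the calls over all genes otherwise, with 1712 higher and 5218 lower against 3346 and 3445 by edgeR.

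**Figure D1:**
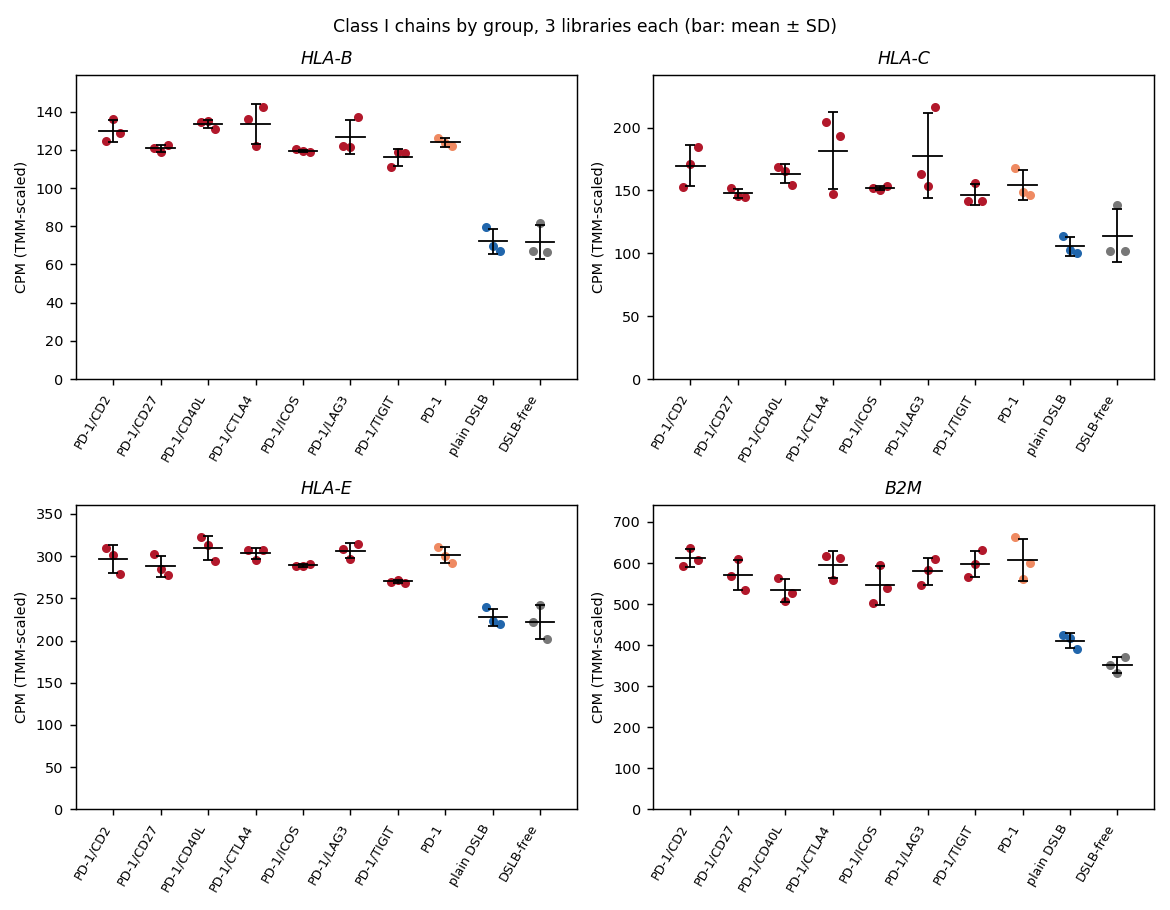
Level of HLA-B, HLA-C, HLA-E and B2M in every library (y axis, CPM on TMM-scaled libraries, from 0) for the 10 groups (x axis), with points for libraries and bars for the mean ± SD of 3. The 24 libraries with PD-1-bearing DSLBs (red and orange) lie above all 6 libraries with plain DSLBs (blue) or without DSLBs (grey) in each panel, and HLA-C shows the widest spread within groups.

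Taken one group at a time against plain DSLBs, 41 of the 72 tests of these genes passed and all 41 were higher (47 at an unadjusted p under 0.05). All 8 comparisons share the 3 plain DSLB libraries. Of all genes, 11.3% were called higher for PD-1 alone, 14.1% for CD2, 12.4% for CD27, 13.2% for CD40L, 17.0% for CTLA4, 9.81% for ICOS, 16.2% for LAG3 and 10.9% for TIGIT, and 4.62% were higher in all 8, as HLA-B, HLA-C, HLA-E and B2M were. For HLA-B the log2 fold change was highest with PD-1/CD40L and PD-1/CTLA4 (0.89 in each) and lowest with PD-1/TIGIT (0.69), and PD-1 alone gave 0.78 (SE 0.0741, adjusted p = 1.53e-08). For HLA-C it was highest with PD-1/CTLA4 (0.78) and PD-1/LAG3 (0.75) and lowest with PD-1/TIGIT (0.47), with 0.55 for PD-1 alone (SE 0.121, adjusted p = 0.00188). Without the 4 libraries that stand apart PD-1/LAG3 had 0.58, below PD-1/CD2 (0.68) and PD-1/CD40L (0.63), and PD-1/CTLA4 had 0.91. PD-1 alone then had 0.48, beside PD-1/CD27 (0.48) and PD-1/TIGIT (0.47). With the mitochondrial share as a covariate HLA-C was lowest with PD-1 alone (0.34), below PD-1/TIGIT (0.41). For HLA-E, PD-1/CD40L gave the highest value (0.45) and PD-1/TIGIT the lowest (0.25), with 0.41 for PD-1 alone (SE 0.0599, adjusted p = 1.53e-05). B2M was ordered otherwise, highest with PD-1/CD2 (0.58) and PD-1 alone (0.57, SE 0.0737, adjusted p = 2.25e-06) and lowest with PD-1/CD40L (0.38). Without the 4 libraries that stand apart B2M had 0.50 with PD-1 alone, below PD-1/CD2 and PD-1/CTLA4 (0.58 each) and PD-1/TIGIT (0.54).

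The genes of peptide transport and loading moved less. TAP1, an ATP-binding subunit of the transporter, had 41.64 to 50.18 CPM (median 44.5) in the PD-1 groups, against 42.55, 38.30 and 36.61 CPM with plain DSLBs and 36.78, 43.08 and 38.30 CPM without DSLBs. The ranges overlapped, and 20 of the 24 PD-1 libraries lay above all 6 controls. Over plain DSLBs the mean of the 8 groups was 1.15 times as high (1.07 to 1.24, log2 0.20, SE 0.0530, edgeR adjusted p = 0.00354). This call was lost without plain DSLB replicate 3 (log2 0.16, adjusted p = 0.0671) and with limma on log2(TPM + 1) (0.08, adjusted p = 0.243). Among the single groups TAP1 passed with PD-1 alone (0.21), CD40L (0.19), CTLA4 (0.23), ICOS (0.22), LAG3 (0.30) and TIGIT (0.20), and had 0.16 with CD2 and 0.12 with CD27 without passing. The call for PD-1 alone was lost in 13 of 41 alternative settings, with a log2 fold change of 0.12 (adjusted p = 0.291) without PD-1 replicate 1 and of 0.14 (adjusted p = 0.122) without the 4 libraries that stand apart, that for CD40L in 28 of 41, and that for TIGIT in 13 of 41 (0.16, adjusted p = 0.172, without plain DSLB replicate 3). The calls for ICOS and CTLA4 were lost in 5 and 4 of 41, among them that without plain DSLB replicate 3 (0.17, adjusted p = 0.154, and 0.19, adjusted p = 0.0808), and that for LAG3 only with limma on log2(TPM + 1) (0.12, adjusted p = 0.17).

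TAP2, the partner of TAP1, had 46.23 to 59.93 CPM (median 53.0) in the PD-1 groups, against 53.12, 45.88 and 46.56 CPM with plain DSLBs and 46.46, 45.74 and 46.47 CPM without DSLBs. Plain DSLB replicate 1 was high within its group, so that 10 of the 24 PD-1 libraries lay above all controls. Its mean over plain DSLBs did not pass (log2 0.12, SE 0.0535, adjusted p = 0.0792, and −0.01 with limma on log2(TPM + 1)), but passed without plain DSLB replicate 1 (0.20, adjusted p = 0.0201) and with the mitochondrial share as a covariate (0.13, adjusted p = 0.0384), while over DSLB-free tumoroids it did (0.19, SE 0.0531, adjusted p = 0.00532). In single groups TAP2 passed only with PD-1/CD40L (53.01, 57.79 and 59.93 CPM, log2 0.23 over plain DSLBs, adjusted p = 0.0187), a call lost in 7 of 41 alternative settings (0.17, adjusted p = 0.12, without PD-1/CD40L replicate 3).

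TAPBP had 179.3 to 259.9 CPM (median 213) in the PD-1 groups, against 194.3, 192.9 and 196.7 CPM with plain DSLBs and 199.8, 189.9 and 207.4 CPM without DSLBs. Unlike the chains, it had values below the controls in some PD-1 libraries, the lowest in PD-1/LAG3 replicate 3. It passed over plain DSLBs with PD-1/ICOS (255.0, 244.4 and 229.2 CPM, log2 0.32, adjusted p = 0.00902) and PD-1/CD40L (259.9, 230.7 and 228.4 CPM, log2 0.30, adjusted p = 0.0112) and did not pass in the mean of the 8 groups (0.15, SE 0.0660, adjusted p = 0.0726). That mean passed in 5 of 40 alternatives, among them with the gene length trend removed (0.25, adjusted p = 0.000517), without PD-1/LAG3 replicate 3 (0.17, adjusted p = 0.0248), without the 4 libraries that stand apart (0.16, adjusted p = 0.0338) and with the mitochondrial share as a covariate (0.16, adjusted p = 0.0286). Without PD-1/CD40L replicate 1 the call for CD40L was lost (0.22, adjusted p = 0.12), and both calls were lost with limma on log2(TPM + 1) (adjusted p = 0.608 for CD40L and 0.195 for ICOS).

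ERAP1 had 59.38 to 83.86 CPM (median 73.1) in the PD-1 groups, against 71.93, 65.23 and 59.03 CPM with plain DSLBs and 68.62, 58.46 and 67.44 CPM without DSLBs. It passed in no single group and not in the mean (log2 0.16, SE 0.0747, adjusted p = 0.0962, and −0.11 with limma on log2(TPM + 1)). The mean passed in 5 of 40 alternatives, among them the gene length trend removed (0.27, adjusted p = 0.000515), the mitochondrial share as a covariate (0.17, adjusted p = 0.015) and those without plain DSLB replicate 1 (0.24, adjusted p = 0.0472) or PD-1/CD2 replicate 3 (0.17, adjusted p = 0.0435). NLRC5 had 1.684 to 3.027 CPM (median 2.38) in the PD-1 groups, against 2.358, 1.737 and 2.212 CPM with plain DSLBs and 1.823, 2.222 and 2.228 CPM without DSLBs. Its mean difference of 0.16 (95% interval −0.12 to 0.45, adjusted p = 0.382) was not distinguishable from 0 at this level of expression.

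**Figure D2:**
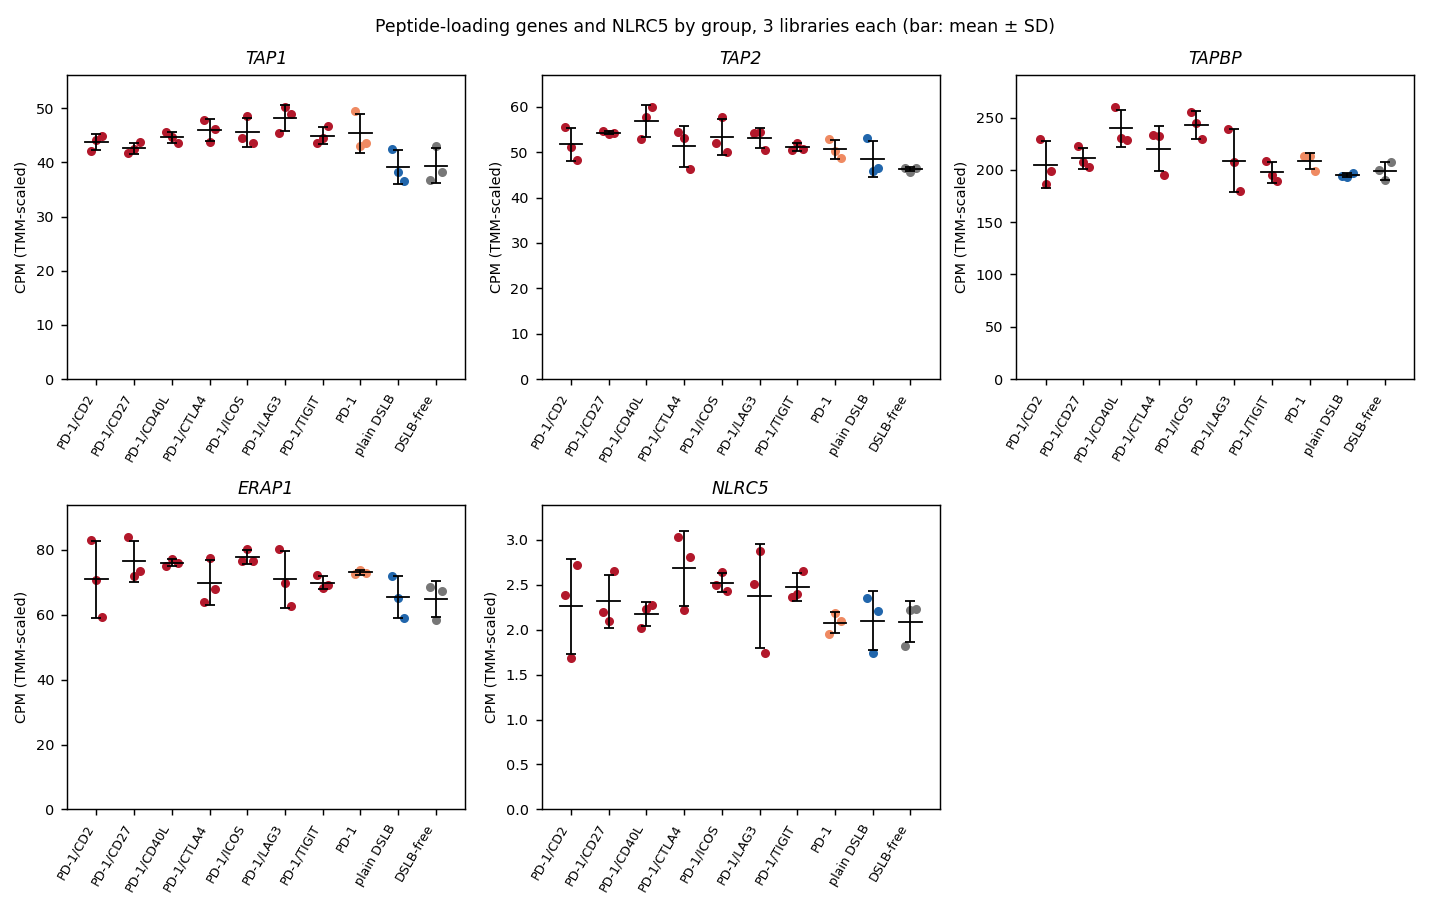
Level of TAP1, TAP2, TAPBP, ERAP1 and NLRC5 in every library (y axis, CPM on TMM-scaled libraries, from 0) for the 10 groups (x axis), with points for libraries and bars for the mean ± SD of 3. The groups overlap in every panel, and 20 of 24 PD-1 libraries for TAP1 but 10 of 24 for TAP2 lie above all 6 controls.

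Another protein beside PD-1 gave no called difference in these genes. Of 63 tests of a co-ligand group against PD-1 alone, 0 passed edgeR's test, 6 had an unadjusted p under 0.05, and DESeq2 called 0. Over all genes 1.23% were called for CD2, 2.29% for CD27, 0.0434% for CTLA4, 0.0109% for CD40L and 0% for ICOS, LAG3 and TIGIT, and the 7 comparisons share the 3 PD-1 libraries. For HLA-B the log2 differences from PD-1 alone lay between −0.10 (TIGIT) and 0.11 (CD40L and CTLA4), and their 95% intervals between −0.25 and 0.26. By p-value, HLA-E with TIGIT came first, at 269.9, 272.2 and 268.7 CPM against 310.9, 300.5 and 291.9 CPM with PD-1 alone. The difference of −0.16 (95% interval −0.28 to −0.03) had an edgeR adjusted p = 1. B2M with CD40L (563.7, 508.6 and 527.6 CPM against 662.3, 561.8 and 599.4 CPM with PD-1 alone) differed by −0.19 (−0.34 to −0.04, adjusted p = 0.338), and TAPBP with ICOS by 0.22 (0.04 to 0.40, adjusted p = 0.402). The B2M difference shrank to −0.12 without the 4 libraries that stand apart, among them PD-1 replicate 1 at 662.3 CPM. With the mitochondrial share as a covariate the B2M difference was also −0.12, and it passed in neither setting. HLA-C with CTLA4 had 204.8, 146.9 and 193.4 CPM against 167.6, 148.5 and 146.3 CPM with PD-1 alone (0.24, −0.01 to 0.48, adjusted p = 0.396), and passed without the 4 libraries that stand apart (0.43, adjusted p = 0.00534). The libraries left out there include PD-1/CTLA4 replicate 2, at 146.9 CPM, and PD-1 replicate 1, at 167.6 CPM. With the mitochondrial share as a covariate HLA-C passed with CTLA4 (0.44, adjusted p = 0.000945), CD2 (0.37, adjusted p = 0.00549) and CD40L (0.41, adjusted p = 0.0188). That share was 2.655 to 4.002% with PD-1 alone. It was 4.196 to 6.151% with CTLA4, 4.024 to 5.689% with CD2 and 5.048 to 7.001% with CD40L. Share and group thus cannot be fully told apart in these estimates.

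Among the 8 PD-1 groups 0 of the 9 genes differed by an F test, where 2.88% of all genes did, and TAPBP alone had an unadjusted p under 0.05 (0.0154, adjusted p = 0.134). DESeq2 called 2, HLA-B (adjusted p = 0.0231) and HLA-E (0.0111). Without the 4 libraries that stand apart edgeR called 3, HLA-B (0.0188), HLA-C (0.00296) and TAPBP (0.0371).

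**Figure D3:**
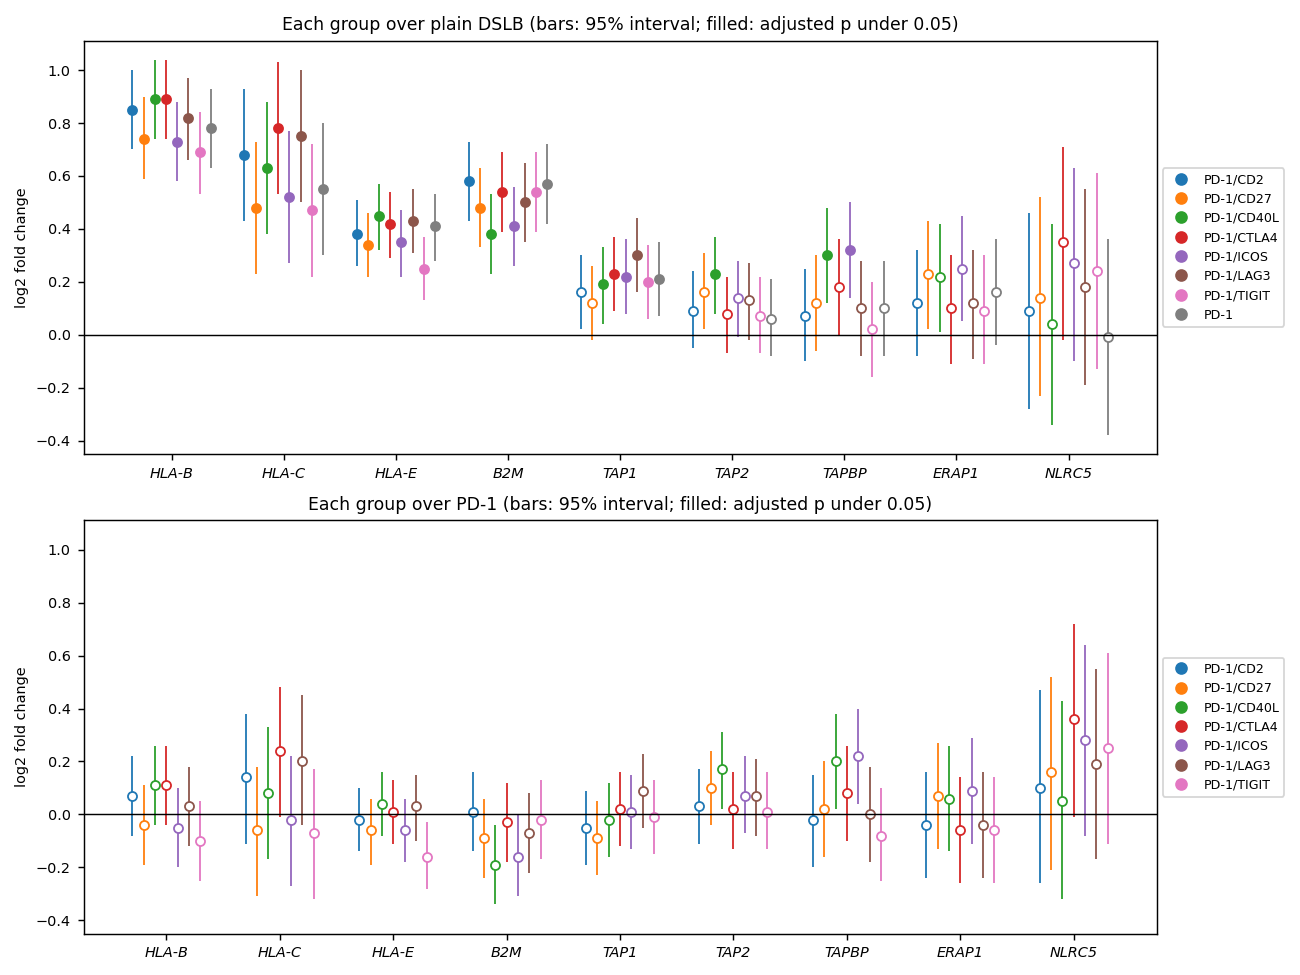
Log2 fold change (y axis) of the 9 genes (x axis) in each PD-1 group over plain DSLBs (top) and in each co-ligand group over PD-1 alone (bottom), with 95% intervals and filled points for an adjusted p under 0.05. All 8 points of HLA-B, HLA-C, HLA-E and B2M are filled and above 0 in the top panel, and none of the 63 points is filled in the bottom panel.

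Plain DSLBs themselves made no called difference. Against DSLB-free tumoroids 0 of the 9 genes passed edgeR's test, where 0.0109% of all genes did, and DESeq2 called 0. The log2 fold change was 0.01 for HLA-B (95% interval −0.15 to 0.16), −0.11 for HLA-C (−0.36 to 0.14) and 0.03 for HLA-E (−0.09 to 0.16). Of the 9 genes, 1 had an unadjusted p under 0.05. This was B2M (log2 0.23, 95% interval 0.07 to 0.38, edgeR adjusted p = 0.668).

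Genes that act with class I molecules were counted in the same contrast, the mean of the 8 PD-1 groups over plain DSLBs, in which 18.2% of all genes were higher and 18.7% lower. All 5 genes of the immunoproteasome and its activator, which cut proteins into peptides suited to class I, were higher: PSMB8 had a log2 fold change of 0.60 (27.4 against 18.1 CPM, adjusted p = 2.38e-06), PSMB10 of 0.52, PSMB9 of 0.43, PSME1 of 0.33 and PSME2 of 0.27. In single groups over plain DSLBs, PSMB8 and PSME1 passed in all 8, PSME2 in 6, PSMB9 in 5 and PSMB10 in 3. PSMB10 had the largest SE of the 5 (0.168, edgeR adjusted p = 0.0185). Its mean was 15.4 CPM in the PD-1 groups and 10.6 CPM with plain DSLBs, and the DSLB-free mean lay between them. The median of this list was 0.43, against 0.01 over all genes. Of 5 tested heavy chains of other class I and class I-like molecules 3 were higher and 0 lower, where 18.2% and 18.7% of all genes were. HLA-F, a nonclassical chain, rose by log2 0.57 (5.10 against 3.43 CPM, adjusted p = 8.84e-05), FCGRT, the heavy chain of the neonatal Fc receptor, by 0.32, and MICB, a ligand of the NKG2D receptor, by 0.27. MICA (0.03) and MR1 (−0.01) did not pass, and HLA-G and CD1D, with at most 8 and 2 counts, were not tested.

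Of 10 partners of peptide loading in the endoplasmic reticulum 3 were higher and 2 lower, near the 18.2% and 18.7% of all genes, with a median of 0.00. TAPBPL (TAPBPR), a peptide editor related to tapasin, was higher by 0.41 and ERAP2, the second trimming aminopeptidase, by 0.39, while UGGT1, the folding sensor that returns class I molecules to calreticulin, was lower (−0.43, adjusted p = 1.38e-05). SPCS1, of the signal peptidase, was higher (0.21) and SEC61A1, of the translocon, lower (−0.22). The chaperones of the loading complex had −0.04 (CALR), −0.04 (CANX) and 0.11 (PDIA3) and did not pass. Among 6 cytosolic and other peptidases that destroy or trim peptides 0 were higher and 3 lower (18.2% and 18.7% of all genes), THOP1 (−0.23), BLMH (−0.23) and NRDC (−0.14).

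Of 12 transcription factors of class I promoters 3 were higher and 4 lower, where 18.2% and 18.7% of all genes were, with a median of −0.06. IRF1, which binds ISREs, was at 21.5 CPM in the PD-1 groups against 16.7 CPM with plain DSLBs (0.36, adjusted p = 0.000161), IRF2 was higher by 0.22 and RFXANK, of the RFX complex at class I and II promoters, by 0.29. CREB1 (−0.38, adjusted p = 2.67e-05), NFYA (−0.28), NFKB1 (−0.20) and NFYB (−0.14), factors of CRE, CCAAT and NF-κB sequences, were lower. Other listed factors of these sequences, RELA (0.07), ATF1 (−0.04) and NFYC (−0.07), did not pass. NFYA had 68.2 CPM in the PD-1 groups, 82.5 CPM with plain DSLBs and 73.8 CPM without DSLBs. It did not pass over the 10 groups (edgeR adjusted p = 0.0909). Of 10 genes of interferon receptors and JAK-STAT signalling 1 was higher and 0 lower, where 18.2% and 18.7% of all genes were. The higher gene was IRF9 (0.32, adjusted p = 0.00363), a DNA-binding subunit of ISGF3, while STAT2 had −0.11 (adjusted p = 0.29). Of 8 genes of class II and its transactivator 4 passed the filter on low counts. Of these CD74, the invariant chain, rose by 1.00 (3.11 against 1.54 CPM, adjusted p = 8.02e-06), where 18.2% of all genes were higher. HLA-DMA and HLA-DMB, with at most 64 and 15 counts in a library, were not called. HLA-DPA1 reached the filter only in the PD-1 groups (0.339 CPM, against 0.0879 CPM with plain DSLBs, at most 25 counts in a library), so no test of it is given. CIITA, the class II transactivator, had at most 13 counts and was not tested. HLA-DPA1 left aside, no test of a co-ligand group against PD-1 alone passed in these 7 lists, where 0% to 2.29% of all genes did per comparison.

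**Figure D4:**
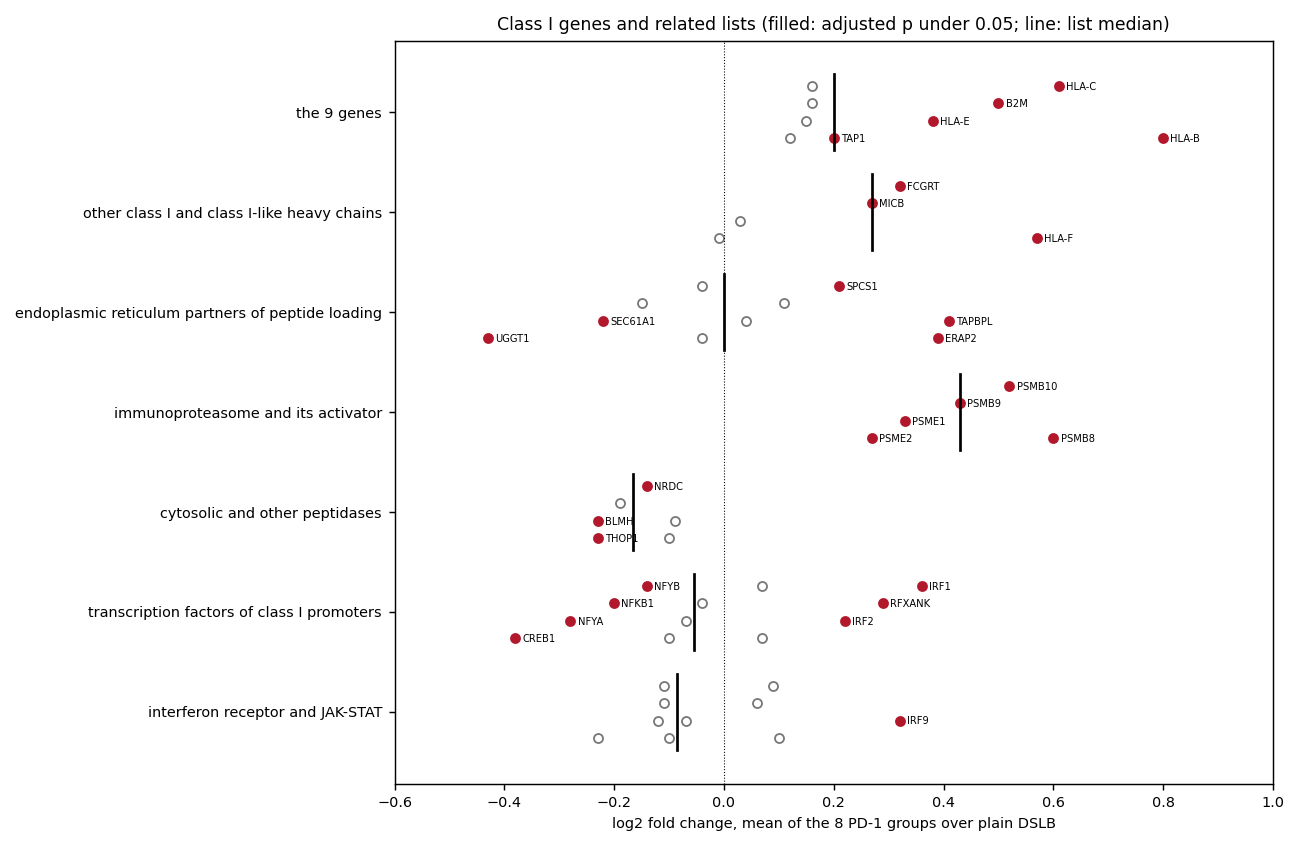
Log2 fold change of single genes (x axis), mean of the 8 PD-1 groups over plain DSLBs, for the 9 genes and the lists of related genes other than class II (rows), with filled and named points for an adjusted p under 0.05 and a vertical line at the median of each list. All 5 immunoproteasome genes are filled and above 0, and the loading partners and the transcription factors have filled points on either side of 0.

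As a description of shared patterns, the log2 levels of the chains followed each other over the 30 libraries, with Pearson r = 0.96 for HLA-B and HLA-E, 0.91 for HLA-B and HLA-C and 0.89 for HLA-B and B2M. Much of this was the step between the PD-1 groups and the controls: within groups r stayed at 0.85 for HLA-B and HLA-C and 0.65 for HLA-B and HLA-E, but was 0.20 for HLA-B and B2M and 0.05 for HLA-E and B2M. TAP1 had r = 0.70 with HLA-B within groups, but 0.28 over the 24 libraries of the PD-1 groups. Within groups ERAP1 had −0.59 with HLA-C and 0.57 with TAPBP. Libraries share their depth and scaling, and no test was made. Among 13839 genes with a mean of at least 50 counts, the genes most like HLA-B over the 30 libraries were SPAG4 (r = 0.97), P4HA2 (0.969), a collagen prolyl hydroxylase, and ALDOC (0.966), a glycolytic aldolase. The r values of such partners also include the step between the PD-1 groups and the controls. For partners outside the set described here, r within groups was not taken. CLDN7 (0.966), a tight junction claudin, HLA-B (0.957) and the lysosomal nuclease DNASE2 (0.956) were most like HLA-E, and B2M was close to NDUFS4 (0.96), of respiratory complex I, and SLC66A3 (0.959). HLA-C was close to BIRC7 (0.965) and POLD4 (0.965), and TAP1 to TM7SF2 and ABHD16A (0.88 each). TAPBP was close to ANKRD33B (0.89), SMAD3 (0.885) and THSD4 (0.857), and ERAP1 to ESYT2 (0.894), SAMD9 (0.888) and ATF6 (0.859). Values were lower for TAP2 (RETSAT 0.792, GM2A 0.766, MICB 0.757) and NLRC5, whose closest gene, ADCK1, had r = 0.669, with PAX2 and a record without a symbol at 0.625.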

How the data were processed

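RNA of 30 PANC-1 cultures was sequenced as single reads from directional libraries. The authors trimmed adapters and low-quality bases, aligned to hg38 with STAR and estimated abundances per gene with RSEM, and the submitters' notes list Trim Galore 0.3.3, FastQC 0.11.2 and SAMtools 1.3.1. Which annotation release and which strand setting RSEM used is not given in the sources used here, and values of overlapping and antisense genes are therefore uncertain. Expected counts, as deposited, were estimated by RSEM and not normalized by the authors, and 8.65% of the values are not whole. The deposited TPM values are the authors' abundances scaled by effective length, used here to compare levels between genes and in 1 alternative test. The deposited posterior standard deviation of the count was used only for the share of uncertainty, and the deposited effective length only for the removed length trend.

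Groups came from the sample labels. Expected counts were rounded, filtered by group with filterByExpr (18424 of 60483 genes), scaled by TMM and fitted with edgeR 4.0.16 (quasi-likelihood, robust) in 1 model of 30 libraries with a mean per group (common biological coefficient of variation 0.0942), with Benjamini-Hochberg adjustment over all genes. Depth was 21903971 to 60506800 expected counts per library, and intervals assume the spread shared over all groups. The study compared groups pairwise with DESeq2. Sample pairing was not used. Alternatives were DESeq2 1.42.0, edgeR on the 6 libraries of a comparison, RLE factors, no filter, a mean of at least 100 counts, removal of the trend with gene length (a spline, 5 degrees of freedom), a replicate block, and leaving out each library or the 4 that stand apart. The F test among the 8 PD-1 groups, DSLB-free tumoroids as the comparator, the mitochondrial share as a covariate, limma 3.58.1 on log2(TPM + 1) and the promoter patterns were added after the data were seen. Steps were tested on simulated data.

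The genes, the lists and the tests were chosen with earlier results of these data known. All 9 genes are given with levels; statistics are given for those past the threshold and the smallest p per family of comparisons, for list genes past the threshold (2 of smallest p where none passed), and the 3 most alike genes by Pearson r of log2 CPM (prior count 2). Added after their values were seen were HLA-C with CTLA4, CD2 and CD40L, B2M with CD40L and TAPBP with ICOS against PD-1 alone, the mean contrasts of genes that did not pass, and list genes named without passing. Some genes that the rules cover are not reported here. Gene coordinates were looked up by identifier in GENCODE v44 (GRCh38), and promoters are RefSeq's. Figures and joins used matplotlib 3.10.9, pandas 2.3.3 and numpy 2.4.6 under Python 3.11.15, and models R 4.3.3.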

Additional observations from a re-analysis of the deposited data

How the results depend on the processing

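HLA-B, HLA-C, HLA-E and B2M kept their direction and their calls in the mean of the 8 PD-1 groups over plain DSLBs under all 40 alternatives (log2 0.72 to 0.88, 0.41 to 0.68, 0.27 to 0.42 and 0.35 to 0.72), and in each single PD-1 group, except HLA-E with PD-1/TIGIT under limma on log2(TPM + 1) (adjusted p = 0.0735). These alternatives include DSLB-free tumoroids as the comparator in place of plain DSLBs, which gave the 0.72 of B2M. Of the 9 genes, the mean contrast over plain DSLBs called 5, and 8 with the mitochondrial share as a covariate. With the gene length trend removed it called 7, and 53 of the 72 single-group tests over plain DSLBs passed, against 41. Limma on log2(TPM + 1) called 4 of the 9 over the 10 groups, against 7, and turned TAP2 (−0.01) and ERAP1 (−0.11) negative in the mean contrast. On that scale the median of all genes was −0.078, and 1712 genes were higher and 5218 lower, against 3346 and 3445 with edgeR on counts. Over the 10 groups TAP2 lost its call in 29 of 39 alternatives. Among the 8 PD-1 groups 0 genes were called, but 2 without a filter, 2 with the mitochondrial covariate, 3 without the 4 libraries that stand apart and 2 with DESeq2. Against PD-1 alone 0 tests passed, but 3 with the mitochondrial covariate and 1 without those 4 libraries. The causes of these shifts were not tested. Leaving out each library in turn gave 5 to 7 genes over the 10 groups, 0 to 1 among the PD-1 groups, 0 against PD-1 alone, 35 to 44 tests of single groups over plain DSLBs, 4 to 7 in the mean contrast and 0 between plain DSLBs and DSLB-free tumoroids. Both extremes of the tests over plain DSLBs came from that group, 44 without replicate 1 and 35 without replicate 3, as did those of the mean contrast.

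Samples with the same replicate number showed little shared deviation (r over 0.1 in 38 of 135 pairs, median 0.00402). Of 30 libraries, 12 were closest to their own number. Such correlations cannot exclude that the numbers pair the samples, so counts with a replicate block are given too. With the replicate block 7 genes were called over the 10 groups, 1 among the PD-1 groups (TAPBP, adjusted p = 0.046), 0 against PD-1 alone, 41 tests over plain DSLBs, 0 between plain DSLBs and DSLB-free tumoroids and 6 in the mean contrast, where TAPBP was gained (adjusted p = 0.0291). TAP1 with PD-1/CD40L lost its call under the block (adjusted p = 0.0535). The depth limits NLRC5 most, at 2.36 CPM in the PD-1 groups, and it had no value under the filter at a mean of 100 counts.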
